A study of Populus qamdoensis and Populus schneideri with 18 samples.

Results

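Phytochrome B and the phytochrome-interacting factors were represented by 4 genes of the 39194 in the deposited expression table: PHYB (Pyun10G014030), PIF4 (Pyun02G023670) and a pair of genes annotated as PIF3 (Pyun14G008760 and Pyun14G009100). The study had named them because they differed between film treatments in Populus qamdoensis leaves, with PHYB and PIF4 among its quantitative PCR targets and the PIF3 genes in its pathway annotation. Their film values in P. qamdoensis therefore describe the choice and were not tested. Leaves of P. schneideri played no part in the study's choice and were tested. The genes were taken up here with earlier results of these data known, so these tests are not fully independent of the data.

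Expression was measured by RNA sequencing of leaves from poplar cuttings of both species, with 3 libraries under blue film (BF), 3 under green film (GF) and 3 under translucent colorless film (WF) in each, 18 libraries in all. The P. qamdoensis cuttings came from a vegetatively propagated nursery stock, were cut from year-old stems and grown on for months before they were covered with the films in a greenhouse, and gave leaves from separate plants after some weeks under film. For P. schneideri the labels give only the light color and a replicate number, and nothing says that the replicates were separate plants, so the p-values measure the spread between these libraries. The genotype field of the labels repeats a sample code, and no allele or hour of sampling was found for either species, nor an age for P. schneideri. Values are FPKM, fragments scaled to the length of the transcript and to the mapped total of the library, and reads of both species were compared with the P. yunnanensis genome, so a species difference in expression and one in match to that genome cannot be told apart. Each value averages over all cells of the leaf, and fewer cells of a type and less RNA per cell cannot be told apart.

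Phytochrome B is a receptor of red and far-red light. In Arabidopsis, its light-activated form enters the nucleus and binds phytochrome-interacting factors, basic helix-loop-helix transcription factors that it marks for phosphorylation and degradation. PIF4 promotes elongation growth there, in part through auxin genes, while PIF3 holds back chloroplast development in dark-grown seedlings. Much of this control acts on the protein, which transcript levels do not measure.

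The study's quantitative PCR primers identify the PHYB and PIF4 transcripts that its assay amplified, and are shown because they tie these gene names to the sequence. All are 20 bases long, given 5′ to 3′ in lower case, with a GC content of 50% for the PHYB primers and 55% for the PIF4 primers.
PHYB forward: acgctggcagtttatggtga
PHYB reverse: accttcaccagggcaaacaa
PIF4 forward: gtgagggaatcgacggttgt
PIF4 reverse: gagcactagaaaccgtgcct

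Libraries were alike in scale, with median-ratio scale factors between 0.933 and 1.08, and depth is unknown because the files hold no counts. A set of 8 photosynthesis genes was detected in every library, at summed levels of 325 to 970 FPKM. BF replicate 1 of P. qamdoensis stood apart, with a median correlation of 0.861 to the other libraries of its species, against 0.940 to 0.979 for the rest. The log2 differences, ratios and correlations that rest on it are also given without it.

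In both species PIF4 was the most abundant of the 4 transcripts. In P. schneideri, both PIF3 genes averaged more than 2 times their WF level under BF and under GF. These libraries lay wholly above WF, as in 9.21% of genes for BF and 4.99% for GF. The adjusted p of both genes missed the study's threshold of 0.01. PHYB and PIF4 means there lay between 0.846 and 1.10 times their WF means. PIF4 was the highest of the 4 in 18 of 18 libraries. Pyun14G009100 was above Pyun14G008760 in 18 of 18 libraries, and Pyun14G008760 was the lowest of the 4 in 15 of 18. PHYB lay between, above Pyun14G009100 in 8 libraries and below it in 10. Among all genes tested over both species, the mean level of PIF4 stood at percentile 74.8, Pyun14G009100 at 52.8, PHYB at 50.9 and Pyun14G008760 at 38.2.

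**Figure D1:**
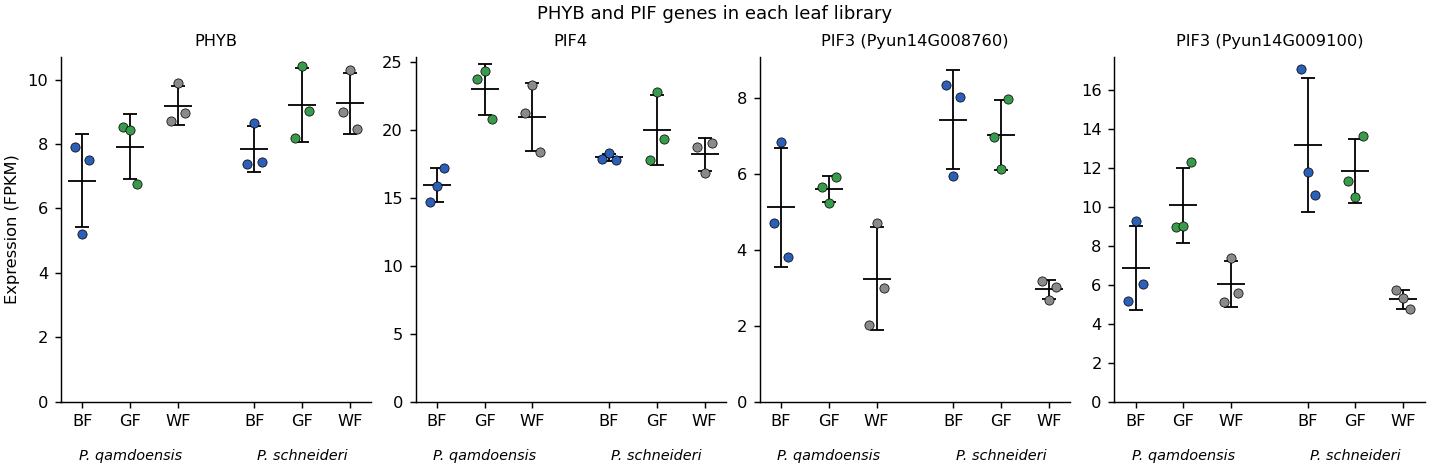
Expression (FPKM) of PHYB, PIF4 and both PIF3 genes in each leaf library, by film (BF blue, GF green, WF colorless) and species; points are libraries, horizontal bars means and whiskers 1 SD (n = 3). In P. schneideri the BF and GF points of both PIF3 genes lie above every WF point, for Pyun14G008760 between 5.94 and 8.34 FPKM against 2.69 to 3.18 FPKM.

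PHYB, the receptor gene, had its lowest mean under BF in both species. In P. qamdoensis it stood at 7.90, 5.21 and 7.49 FPKM under BF, 8.54, 8.45 and 6.75 FPKM under GF, and 8.73, 9.89 and 8.97 FPKM under WF. All BF and all GF libraries thus lay below all WF libraries, a position that 10% of all genes tested held for BF and 5.21% for GF. The BF mean was 0.747 times the WF mean, a log2 fold change of -0.39 on the log2(FPKM + 1) scale used throughout, and -0.49 without BF replicate 1. BF replicate 2 was the low point, and without it the change was -0.23. In P. schneideri PHYB stood at 7.39, 8.66 and 7.46 FPKM under BF, 8.18, 10.4 and 9.03 FPKM under GF, and 9.01, 10.3 and 8.48 FPKM under WF, so every pair of films overlapped. BF differed from WF by -0.22 (SE 0.13, 95% interval -0.50 to 0.07, limma adjusted p = 0.461). GF differed from WF by -0.01 (95% interval -0.30 to 0.28, limma adjusted p = 0.988), and the sign turned with quantile normalization, median-ratio scaling and library weights. Over both species the order of means was P. schneideri WF at 9.26 ± 0.94 FPKM, P. schneideri GF at 9.22 ± 1.14, P. qamdoensis WF at 9.198 ± 0.61, P. qamdoensis GF at 7.91 ± 1.01, P. schneideri BF at 7.84 ± 0.71 and P. qamdoensis BF at 6.87 ± 1.45 (SD, n = 3 each). Of these neighbours, P. qamdoensis WF and P. qamdoensis GF did not overlap, and the others did.

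PIF4, the growth-promoting factor, was lowest under BF in P. qamdoensis and nearly level in P. schneideri. P. qamdoensis libraries held 14.7, 15.9 and 17.2 FPKM under BF, 23.8, 24.3 and 20.8 FPKM under GF, and 21.2, 23.3 and 18.3 FPKM under WF. Every BF library was below every WF library and below every GF library, while GF and WF overlapped. That position was held by 10% of genes for BF against WF and by 12.9% for BF against GF. The BF mean was 0.761 times the WF mean (log2 fold change -0.37, or -0.32 without BF replicate 1) and 0.694 times the GF mean (0.720 without BF replicate 1). P. schneideri libraries held 17.9, 18.3 and 17.8 FPKM under BF, 17.8, 22.8 and 19.3 FPKM under GF, and 18.7, 16.8 and 19.0 FPKM under WF, and every pair of films overlapped. There the log2 fold change was -0.01 for BF against WF (95% interval -0.26 to 0.24, limma adjusted p = 0.968), a value that turned positive after quantile or median-ratio scaling. For GF against WF it was 0.12 (95% interval -0.13 to 0.37, limma adjusted p = 0.702). In order of means, P. qamdoensis GF held 23.0 ± 1.88 FPKM, P. qamdoensis WF 21.0 ± 2.49, P. schneideri GF 19.97 ± 2.58, P. schneideri WF 18.2 ± 1.19, P. schneideri BF 17.99 ± 0.27 and P. qamdoensis BF 15.9 ± 1.25 (SD, n = 3 each). The last pair, both under BF, did not overlap (P. qamdoensis lay wholly lower in 14.2% of genes), whereas all other neighbours did.

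PIF3 Pyun14G008760 was the gene with the widest span, 4.13-fold between its lowest and highest library. P. qamdoensis libraries held 4.71, 6.85 and 3.81 FPKM under BF, 5.66, 5.25 and 5.92 FPKM under GF, and 2.02, 4.70 and 3.00 FPKM under WF. All GF libraries lay above all WF libraries, as did those of 7.43% of genes, and BF overlapped both. The BF mean was 1.58 times the WF mean (log2 fold change 0.55, or 0.58 without BF replicate 1) and the GF mean 1.73 times (0.69). Leaving out WF replicate 1, the lowest library, gave 0.33 for BF. P. schneideri libraries held 8.34, 5.94 and 8.03 FPKM under BF, 6.97, 6.13 and 7.98 FPKM under GF, and 3.18, 2.69 and 3.02 FPKM under WF. BF and GF overlapped each other, and both lay wholly above WF, a position that 9.21% of genes held for BF and 4.99% for GF. The BF mean was 2.51 times and the GF mean 2.37 times the WF mean. By mean level the order was P. schneideri BF with 7.44 ± 1.30 FPKM, P. schneideri GF with 7.03 ± 0.93, P. qamdoensis GF with 5.61 ± 0.34, P. qamdoensis BF with 5.12 ± 1.56, P. qamdoensis WF with 3.24 ± 1.36 and P. schneideri WF with 2.96 ± 0.25 (SD, n = 3 each). Only P. schneideri GF and P. qamdoensis GF, among these neighbours, did not overlap. The share of all genes in that position is not given. Under GF 2568 of 24273 genes were lower in P. qamdoensis at an unadjusted limma p below 0.05.

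PIF3 Pyun14G009100, the more abundant of the pair, showed a similar film order in P. schneideri. Its P. qamdoensis libraries held 5.19, 9.30 and 6.07 FPKM under BF, 8.95, 9.02 and 12.3 FPKM under GF, and 5.14, 7.38 and 5.61 FPKM under WF. GF again lay wholly above WF, as in 7.43% of genes, at 1.67 times its mean (log2 fold change 0.65). BF, at 1.13 times the WF mean, overlapped both. The BF difference of 0.14 was 0.29 without BF replicate 1 and -0.08 without BF replicate 2, so its direction rested on that library. P. schneideri libraries held 17.1, 11.8 and 10.6 FPKM under BF, 11.4, 10.5 and 13.7 FPKM under GF, and 5.73, 5.31 and 4.76 FPKM under WF. Both colored films lay wholly above WF, as in 9.21% of genes for BF and 4.99% for GF, with means 2.503 times and 2.25 times its mean. From the highest mean down, P. schneideri BF had 13.2 ± 3.44 FPKM, P. schneideri GF 11.8 ± 1.64, P. qamdoensis GF 10.1 ± 1.91, P. qamdoensis BF 6.86 ± 2.16, P. qamdoensis WF 6.04 ± 1.18 and P. schneideri WF 5.27 ± 0.49 (SD, n = 3 each), and every neighbouring pair overlapped.

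The films of P. schneideri asked whether the genes chosen in the other species also differed with film color in this one. For BF against WF, limma gave a log2 fold change of 1.08 for Pyun14G008760 (SE 0.15, 95% interval 0.74 to 1.42, adjusted p = 0.0404) and 1.15 for Pyun14G009100 (SE 0.17, 95% interval 0.78 to 1.53, adjusted p = 0.0423). They ranked 13 and 21 by p among 23821 genes tested. For GF against WF the values were 1.02 for Pyun14G008760 (95% interval 0.68 to 1.35, adjusted p = 0.0316, rank 31) and 1.03 for Pyun14G009100 (95% interval 0.65 to 1.41, adjusted p = 0.0417, rank 57). Both exceeded the 1.5-fold change of the study's criteria and missed its adjusted p of 0.01. By those criteria 0 of 4 genes were called under BF, beside 0.0252% of all genes (6 genes), and 0 of 4 under GF, beside 0.042% (10 genes). At an unadjusted p below 0.05, 2 of 4 passed in each comparison, both of them PIF3 genes, beside 15.6% of all genes for BF and 12.1% for GF.

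No difference between BF and GF was called for the 4 genes in P. schneideri. Log2 fold changes of BF against GF were -0.21 for PHYB (95% interval -0.49 to 0.08), -0.14 for PIF4 (-0.38 to 0.11), 0.07 for Pyun14G008760 (-0.27 to 0.40) and 0.12 for Pyun14G009100 (-0.25 to 0.50), with limma adjusted p of 0.881 to 0.973. Here limma called 0 of 4 and 0% of all genes, and at an unadjusted p below 0.05 it passed 0 of 4 and 1545 genes, or 6.49%. Over the 3 films together, the moderated F test gave adjusted p = 0.0360 for Pyun14G008760, 0.0366 for Pyun14G009100, 0.603 for PHYB and 0.751 for PIF4. An adjusted p below 0.01 was reached by 0.0294% of genes in that test. Exact permutation over all 280 assignments of the libraries to films gave p = 0.0250 for Pyun14G008760, 0.0214 for Pyun14G009100, 0.207 for PHYB and 0.375 for PIF4. For 3 libraries against 3, the exact test cannot go below p = 0.1, which both PIF3 genes reached against WF under either colored film.

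**Figure D2:**
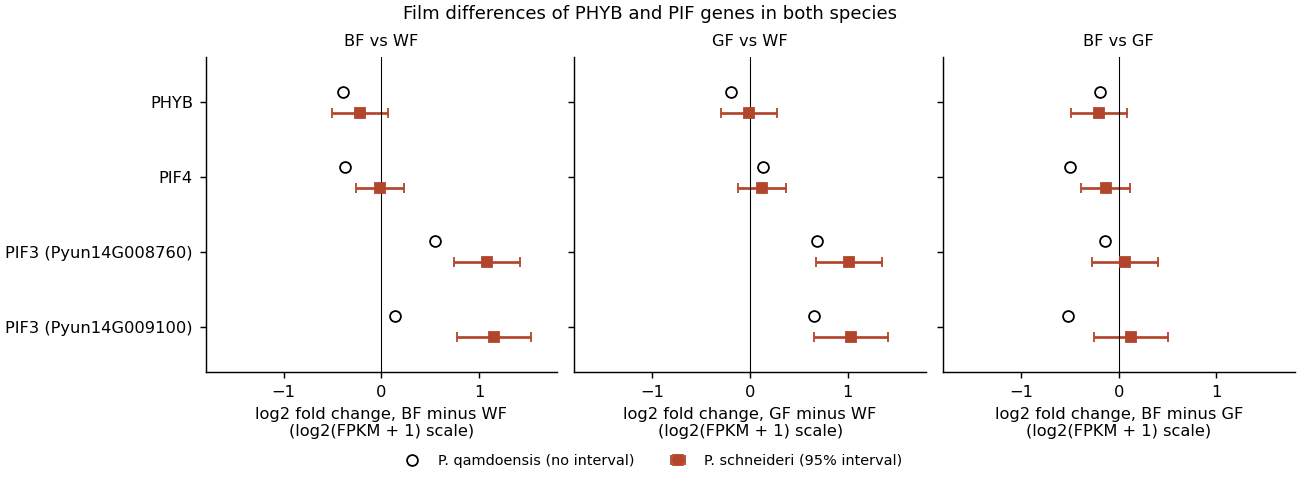
Log2 fold changes between films on the log2(FPKM + 1) scale; filled squares are P. schneideri with limma 95% intervals (9 libraries), open circles P. qamdoensis values without interval or test. The intervals of both PIF3 genes against WF stay above 0 in P. schneideri (lowest bound 0.65), and those of PHYB and PIF4 cross 0.

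The PIF3 estimates moved little and their adjusted p moved much across settings. Leaving out each P. schneideri library in turn kept the BF difference between 1.00 and 1.22 for Pyun14G008760 and between 0.97 and 1.28 for Pyun14G009100. The limma adjusted p ranged from 0.0112 to 0.216 and from 0.0129 to 0.216, lowest without GF replicate 1 and highest without WF replicate 2. With library weights both genes were called under BF (adjusted p = 0.00170 and 0.00263) and Pyun14G008760 under GF (0.00490), as were both under BF when only the 6 libraries compared were fitted (0.00901 and 0.00994).

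**Figure D3:**
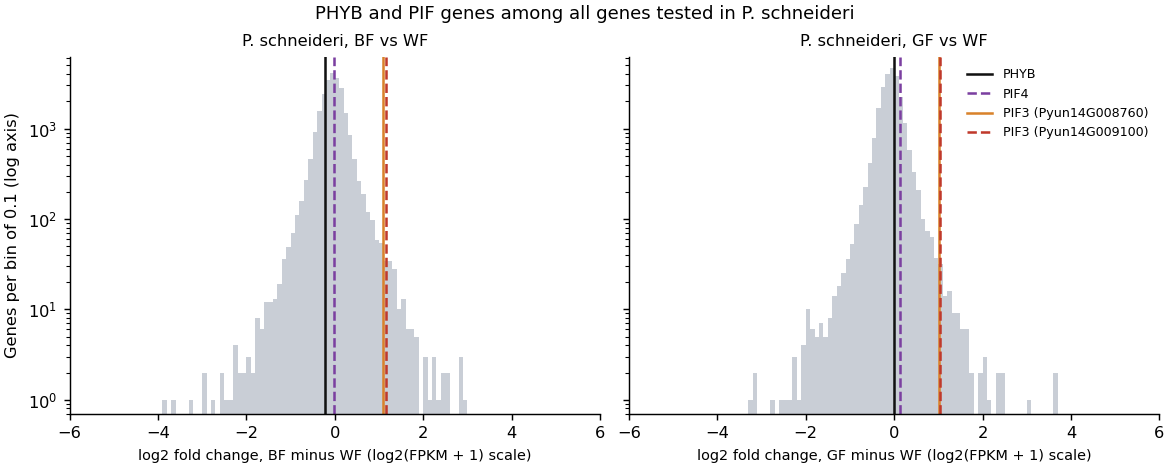
Histograms of log2 fold changes for all 23821 genes tested in P. schneideri (gray bars, bins of 0.1, log axis), for BF against WF and GF against WF; vertical lines mark PHYB, PIF4 and both PIF3 genes. Both PIF3 lines fall between percentiles 99.3 and 99.6 of all genes, while PHYB and PIF4 lie in the body of the distribution.

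Film color accounted for 92.4% of the variance of Pyun14G008760 among P. schneideri libraries and for 88.5% of that of Pyun14G009100, on the log2 scale, beside 29.3% for the median gene. PHYB reached 44.6% and PIF4 30.0%. In P. qamdoensis the order differed, with PIF4 at 79.5%, Pyun14G009100 at 58.2%, Pyun14G008760 at 53.4% and PHYB at 49.6%, beside a median of 30.9%. Without BF replicate 1 the values were 73.6% for PIF4, 63.5% for Pyun14G009100, 62.1% for PHYB and 53.7% for Pyun14G008760, so PHYB then stood above Pyun14G008760. These shares describe the libraries, and in P. qamdoensis they include the differences by which the genes were chosen.

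Set side by side, the colored films gave both PIF3 genes positive log2 fold changes against WF in both species, with the exception without BF replicate 2 given above for Pyun14G009100. For BF against WF the log2 fold changes were 0.55 in P. qamdoensis and 1.08 in P. schneideri for Pyun14G008760, and 0.14 in P. qamdoensis and 1.15 in P. schneideri for Pyun14G009100. For GF against WF they were 0.69 in P. qamdoensis and 1.02 in P. schneideri for Pyun14G008760, and 0.65 in P. qamdoensis and 1.03 in P. schneideri for Pyun14G009100. Within each species both comparisons share the WF libraries, and the difference between species was not tested because the P. qamdoensis values had been used in the choice.

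Averaged over the films, none of the 4 genes was called between species by the same criteria. The P. qamdoensis libraries averaged 7.66 ± 2.42 FPKM of Pyun14G009100 and the P. schneideri libraries 10.1 ± 4.14 FPKM (SD, n = 9 each). The log2 difference, P. qamdoensis minus P. schneideri, was -0.31 for this gene (SE 0.12, 95% interval -0.56 to -0.05, limma adjusted p = 0.0641, exact permutation p = 0.0783). Without BF replicate 1 of P. qamdoensis it was -0.25 (adjusted p = 0.1002). The difference was -0.24 for Pyun14G008760 (95% interval -0.50 to 0.03, adjusted p = 0.171), -0.13 for PHYB (-0.31 to 0.05, adjusted p = 0.277) and 0.07 for PIF4 (-0.07 to 0.21, adjusted p = 0.436). Without that library these were -0.22 for Pyun14G008760, -0.16 for PHYB and 0.091 for PIF4, with adjusted p of 0.146 to 0.314. Limma called 0 of 4 genes, beside 11.1% of all genes (2696 of 24273), and at an unadjusted p below 0.05 passed 1 of 4, beside 40.3%. The species mean of Pyun14G009100 held unlike films, with a log2 difference of -0.86 under BF (-0.71 without BF replicate 1 of P. qamdoensis), -0.22 under GF and 0.16 under WF. Under BF its P. qamdoensis libraries all lay below those of P. schneideri, as did those of 14.2% of genes, and under WF they overlapped.

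The ratio of the PIF3 genes to each other ran from 1.10 to 2.55 in P. qamdoensis libraries and from 1.33 to 2.05 in P. schneideri libraries. On average Pyun14G009100 was 1.35 ± 0.25 times Pyun14G008760 under BF (1.48 without BF replicate 1), 1.79 ± 0.26 times under GF and 2.00 ± 0.50 times under WF in P. qamdoensis (SD, n = 3 each). In P. schneideri it was 1.79 ± 0.40 times under BF, 1.68 ± 0.05 times under GF and 1.79 ± 0.20 times under WF. Exact two-sided permutation tests of the log2 ratio gave p = 0.886 over the films of P. schneideri and p = 0.513 between species within films. The mean log2 ratio of Pyun14G008760 to Pyun14G009100 differed by -0.07 for BF against WF and -0.02 for GF against WF in P. schneideri. How reads shared by both genes were counted is not given in the sources used here, so their separate levels, and their likeness, are uncertain.

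**Figure D4:**
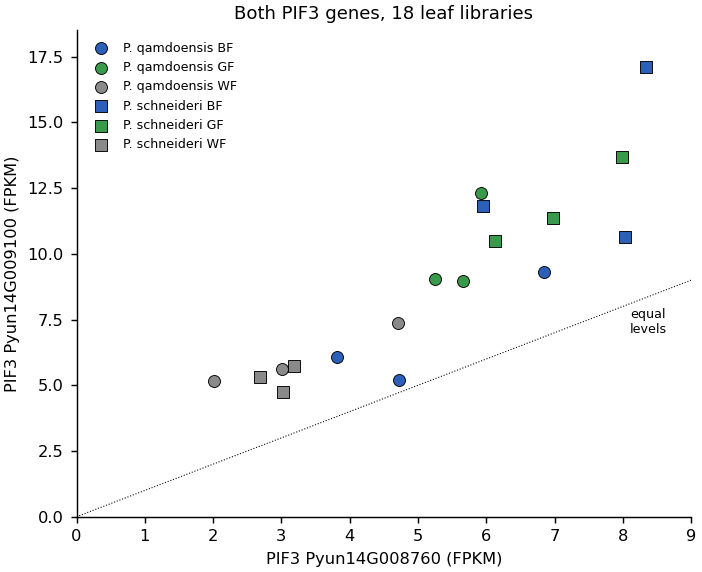
FPKM of PIF3 Pyun14G009100 (vertical) against PIF3 Pyun14G008760 (horizontal) in 18 leaf libraries, circles P. qamdoensis and squares P. schneideri, colored by film; the dotted line marks equal levels. Every library lies above the line, and the P. schneideri WF libraries sit at the low end apart from its BF and GF libraries.

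The summed level of the PIF3 genes was set against PHYB and PIF4 within each library, a description chosen after the values were seen. In P. qamdoensis the PIF3 sum was 1.89 ± 1.05 times PHYB under BF (2.21 without BF replicate 1), 2.03 ± 0.58 times under GF and 1.00 ± 0.20 times under WF. This BF mean rested largely on BF replicate 2, the highest library of the species in this ratio. BF replicates 1 and 3 stood at 1.254 and 1.318 times PHYB, little above the highest WF library at 1.221 times. In P. schneideri the PIF3 sum was 2.66 ± 0.71 times PHYB under BF, 2.08 ± 0.43 times under GF and 0.894 ± 0.11 times under WF (SD, n = 3 each). Of the summed FPKM of all 3 PIF genes, PIF3 made up 42.4% (43.4% without BF replicate 1), 40.6% and 30.4% in P. qamdoensis and 53.0%, 48.6% and 31.1% in P. schneideri under BF, GF and WF. PIF4 was 2.31 ± 0.17 times PHYB under BF, 2.17 ± 0.02 times under GF and 1.99 ± 0.32 times under WF in P. schneideri. In P. qamdoensis the libraries stood at 1.86, 3.05 and 2.30 times under BF, 2.78, 2.88 and 3.09 times under GF, and 2.43, 2.36 and 2.05 times under WF.

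Likeness of pattern was measured by Pearson's r of log2(FPKM + 1) over the 18 libraries after each species mean was taken off, among 22915 genes. Each library shares its film group and its scaling with others, and r is a description. For Pyun14G008760 the most alike gene of all was the other PIF3 gene (r = 0.892). For Pyun14G009100 it was Pyun10G023920 (r = 0.901), with Pyun14G008760 at rank 2. PHYB was most like Pyun12G000380 (r = 0.906) and PIF4 most like Pyun01G023850 (r = 0.913), genes that the files leave without a name. Between the 4 genes, r was 0.52 for PHYB with PIF4, -0.50 and -0.41 for PHYB with the PIF3 genes, and 0.03 and 0.23 for PIF4 with them. Over the 17 libraries without BF replicate 1 of P. qamdoensis, the PIF3 genes were each other's most alike gene (r = 0.926). There Pyun10G023920 took rank 2 for Pyun14G009100 (r = 0.903), Pyun12G000380 was first again for PHYB (r = 0.919), and Pyun01G023850 took rank 6 for PIF4 (r = 0.877). Between PHYB and PIF4 r was then 0.62, between PHYB and the PIF3 genes -0.50 and -0.42, and between PIF4 and the PIF3 genes 0.061 and 0.13.

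Other light-signaling genes of the study were set beside them: CRY1, a blue-light receptor, COP1, a ubiquitin ligase that degrades light-signaling factors, and HY5 and HYH, transcription factors that COP1 targets and that act opposite to PIFs on many Arabidopsis genes. The study chose these genes and those of the lists that follow on the P. qamdoensis libraries, so their film values in that species are given as a description. In P. schneideri all 4 were lower under BF and under GF than under WF. The median log2 fold change was -0.26 for BF and -0.22 for GF, beside -0.04 and -0.07 over all genes. Limma called 0 of 4 in either, beside 0.0252% of all genes for BF and 0.042% for GF. Of all 23821 genes tested, 13710 had a negative log2 fold change for BF and 15104 for GF. The direction of all 4 light-signaling genes held under quantile normalization and median-ratio scaling. After median-ratio scaling their GF median was -0.14 and the weakest GF value only -0.009. HYH had 26.1 ± 1.85 FPKM under BF, 26.4 ± 0.85 FPKM under GF and 32.1 ± 0.64 FPKM under WF (SD, n = 3 each), with both colored films wholly below WF, as in 17.2% of genes for BF and 13.3% for GF. Its log2 fold changes were -0.29 for BF and -0.27 for GF (limma adjusted p = 0.199 and 0.279). In P. qamdoensis all 4 were also lower under BF than under WF, between -0.44 for HY5 and -0.23 for COP1 and CRY1, or between -0.37 and -0.16 without BF replicate 1. Of the 24147 genes tested there, 13320 had a negative log2 fold change for BF. Under GF 3 of 4 were higher than under WF in P. qamdoensis and 1 of 4, HYH, was lower, with a median of 0.06. For GF 12773 of all genes were higher.

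PIF3 is also placed on the plant circadian map, and 6 more genes of that map were chosen by the study in P. qamdoensis. In P. schneideri 4 of 6 were lower and 2 of 6 higher under BF and under GF than under WF. Of all 23821 genes tested, 13710 were lower for BF and 15104 for GF. Limma called 0 of 6, beside 0.0252% of all genes for BF and 0.042% for GF. Medians were -0.73 for BF and -0.74 for GF, beside -0.04 and -0.07 over all genes. Pyun14G012420 had 255 ± 72.0 FPKM under BF, 243 ± 105 FPKM under GF and 548 ± 110 FPKM under WF, a log2 fold change of -1.12 for BF and -1.25 for GF (limma adjusted p = 0.164 and 0.151). Pyun01G005080 differed by -1.11 under BF and -1.68 under GF (limma adjusted p = 0.141 and 0.0449). The P. schneideri means of Pyun14G012420 and Pyun01G005080 were lower under both colored films, where those of the PIF3 genes were higher. The 2 genes on the higher side went the same way as the PIF3 genes. Pyun02G016750 differed by 0.70 for BF and 0.56 for GF, and Pyun14G008400 by 0.56 and 0.48. Because the hour of sampling is not given, the part of the time of day in the PIF3 values was not tested. In P. qamdoensis the log2 fold changes of Pyun14G012420 were -0.77 for BF (-1.12 without BF replicate 1) and -1.27 for GF. Those of Pyun01G005080 differed in sign, with 0.91 for BF (0.18 without BF replicate 1) and -1.33 for GF. Pyun03G016750 had the highest BF value of the list there, 2.78 (1.81 without BF replicate 1), against -0.83 in P. schneideri.

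Gibberellin receptors of the GID1 family bind the hormone and release PIFs from DELLA repressors such as RGL1 in Arabidopsis. In P. schneideri limma called 0 of 5 genes of this list under BF or GF, beside 0.0252% and 0.042% of all genes. Medians were 0.34 and 0.10, beside -0.04 and -0.07 over all genes, and RGL1 differed by 0.10 for BF and 0.21 for GF. In P. qamdoensis the log2 fold change of RGL1 was -0.52 for BF against WF (-0.41 without BF replicate 1) and 0.45 for GF. RGL1 was near the filter of 0.5 FPKM, where the log2(FPKM + 1) scale understates changes. Its means under BF, GF and WF were 0.18, 1.32 and 0.70 FPKM in P. qamdoensis and 0.55, 0.74 and 0.45 FPKM in P. schneideri. Between species 1 of 5 was called, beside the 11.1% of all genes. GID1b was higher in P. qamdoensis by 1.52 (SE 0.31, limma adjusted p = 0.00139), or by 1.46 without BF replicate 1 of P. qamdoensis (adjusted p = 0.00207). Its P. qamdoensis means were 4.81 (4.24 without that library), 12.6 and 9.004 FPKM under BF, GF and WF, and its P. schneideri means 2.92, 2.18 and 1.66 FPKM.

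Auxin output genes, among them GH3 enzymes that conjugate auxin and SAUR genes linked to cell expansion, are downstream of PIF4 in Arabidopsis. The study picked these genes for their film differences in P. qamdoensis, so that their count there restates the choice: 4 of 4 were higher under BF than under WF, by 0.66 for GH3.6 to 0.98 for SAUR50, or by 0.60 to 0.76 without BF replicate 1. In P. schneideri 3 of 4 passed the filter on low levels and 0 were called, beside 0.0252% of all genes for BF and 0.042% for GF. Medians were 0.043 for BF and -0.23 for GF, beside -0.04 and -0.07 over all genes. SAUR50 had log2 fold changes of 0.065 for BF and 0.28 for GF, and auxin-induced protein 6B 0.043 and -0.23. GH3.1 had 0.988 ± 0.61 FPKM under BF, 0.809 ± 0.23 FPKM under GF and 2.88 ± 0.49 FPKM under WF, with log2 fold changes of -0.997 and -1.10 (limma adjusted p = 0.0993 and 0.0661). Between species 2 of 4 were called, beside the same 11.1% of all genes, both lower in P. qamdoensis: SAUR50 with a log2 difference of -0.89 and auxin-induced protein 6B with -0.70 (limma adjusted p = 0.000531 and 0.000604). Without BF replicate 1 of P. qamdoensis both were called again, at -1.02 and -0.70. Under BF the libraries of the species overlapped for both genes. There the P. qamdoensis means were 0.94 and 0.79 times those of P. schneideri (log2 differences of -0.55 and -0.22 without BF replicate 1). The ratios were 0.30 and 0.27 under GF and 0.40 and 0.33 under WF.

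Chlorophyll metabolism was represented by 6 genes, among them protochlorophyllide reductase, the light-dependent enzyme of chlorophyll synthesis, and STAY-GREEN 1, which starts chlorophyll breakdown. In P. schneideri 0 of 6 were called under BF or GF, beside 0.0252% and 0.042% of all genes. Medians were 0.12 and 0.02, beside -0.04 and -0.07 over all genes. Under BF 5 of 6 had a positive log2 fold change there, and 1 of 6, protochlorophyllide reductase, a negative one (-0.41). Under GF 3 of 6 were positive and 3 of 6 negative, with protochlorophyllide reductase at -0.84. STAY-GREEN 1 Pyun01G010920 differed by 0.12 for BF and 0.16 for GF, and STAY-GREEN 1 Pyun03G011220 by 0.20 and 0.21. Of the 8 photosynthesis genes, 5 were lower under BF than under WF in P. schneideri at an unadjusted limma p below 0.05, by up to -2.46 for Pyun02G019960. At that p 2454 of 23821 genes were lower, and 15.6% of genes passed in either direction. The other 3 photosynthesis genes had log2 fold changes of 0.033 to 0.71. Under GF 0 of 8 passed at that p, beside 12.1% of all genes. Under either film 0 of 8 were called, beside 0.0252% of all genes for BF and 0.042% for GF. In P. schneideri the summed level of these genes ranged over 495 to 673 FPKM under BF, 325 to 836 under GF and 429 to 541 under WF, and its part in the PIF3 differences was not tested.

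**Figure D5:**
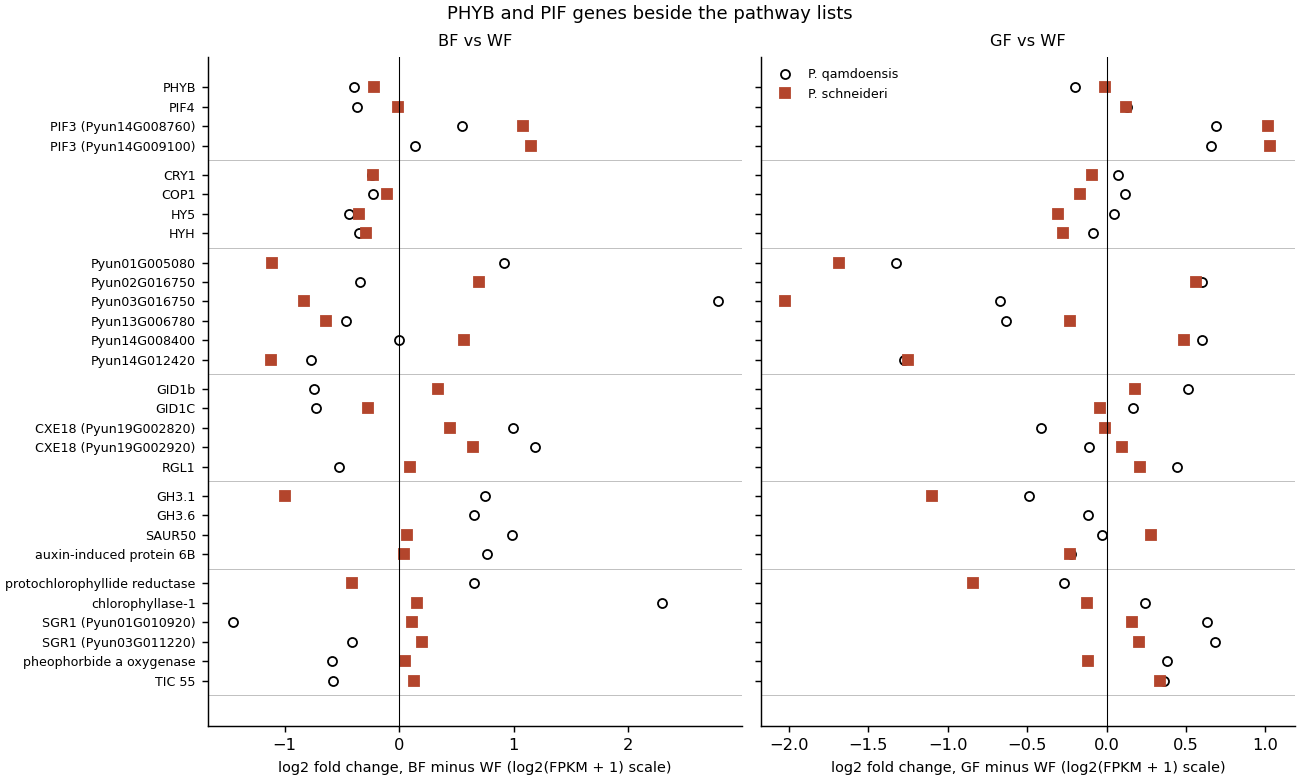
Log2 fold changes of BF against WF (left) and GF against WF (right) on the log2(FPKM + 1) scale for PHYB and the PIF genes (top) and the lists for light signaling, circadian map, gibberellin reception, auxin output and chlorophyll metabolism (blocks below, in that order); open circles P. qamdoensis, filled squares P. schneideri. GH3.6 has no P. schneideri value because it fell below the filter; CXE18 is carboxylesterase 18 and SGR1 is STAY-GREEN 1. All 4 light-signaling genes lie left of 0 in both species under BF.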

How the data were processed

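Leaf RNA of 18 libraries, 3 per film and species, was sequenced. The authors deposited 1 table of FPKM values per gene, made from reads compared with the P. yunnanensis genome, and the submitters' processing notes name HISAT2 and StringTie without versions. Gene names came from the study's own annotation and primer tables. The members and gene lists were chosen with earlier results of these data known. The genes named in the text are the 4 members, the genes of the fixed lists and, for each member, the gene with the highest r. Pyun02G019960 is named as a photosynthesis gene of these lists.

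Values were analysed as log2(FPKM + 1), a scale that understates changes of low genes, keeping genes whose mean reached 0.5 FPKM. Films in P. schneideri were tested with limma 3.58.1 (R 4.3.3, moderated tests with intensity trend) on its 9 libraries, and species on all 18, with Benjamini-Hochberg adjustment over all genes tested. A call required a fold change of at least 1.5 and an adjusted p below 0.01, the study's criteria, whose test is not given in the sources used here. Single genes were also tested by exact two-sided permutation, over 280 divisions for films and 8000 assignments for species. Whole reads could not be recovered from the FPKM values (at most 5.19% of low genes shared a common step), so no depth or count test is given. The procedure was tested on simulated data with 200 changed genes. Other pseudocounts, filters, scalings, library weights, a replicate block, thresholds, sample sets and the omission of each library were tried.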

Additional observations from a re-analysis of the deposited data

How the results depend on the processing

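No alternative turned the direction of a PIF3 difference from WF in P. schneideri. The following changed. After quantile normalization and median-ratio scaling, PIF4 under BF against WF was 0.024 and 0.044 and PHYB under GF against WF 0.076 and 0.070 (0.083 with library weights). Genes called for GF against WF numbered 2 without a filter and 6 with a minimum of 5 FPKM or median-ratio scaling, for BF against GF 1 without a filter, and between species 1216 with a minimum of 5 FPKM. Over the 3 films 13 were called with a pseudocount of 0.1 and 4 after either scaling, without the trend or with a spread shared by all 18 libraries. That shared spread gave 2 for BF and 3 for GF against WF. Library weights gave 304, 98, 14 and, over the films, 253 genes, with 1.19 and 0.93 for Pyun14G008760 under BF and GF (F = 51.4) and 1.29 for Pyun14G009100 under BF (F = 36.4). An adjusted p below 0.05 gave 38, 81, 12 and 75 genes and called both PIF3 genes, at 1.08 and 1.02 (F = 31.6) for Pyun14G008760 and 1.15 and 1.03 (F = 27.4) for Pyun14G009100. Only the 6 libraries compared gave 113 genes for BF against WF, with 1.08 and 1.15 called. Taken film by film, species calls numbered 1339 under BF, 1138 under GF and 1425 under WF, with PIF4 at -0.17 under BF and, under WF, Pyun14G008760 at 0.051 and Pyun14G009100 at 0.16.

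Leaving out single libraries gave 1 to 48 genes for BF against WF (48 without GF replicate 1, 1 without BF replicate 3), 1 to 13 for GF against WF (1 without WF replicate 1), 0 to 1 for BF against GF and 1 to 24 over the films. PIF4 under BF ranged from -0.066 to 0.018, PHYB under GF from -0.093 to 0.066, and for BF against GF Pyun14G008760 from -0.017 to 0.20 and Pyun14G009100 from -0.065 to 0.25. Fits that leave 2 libraries under a film assume that these vary like the rest.

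With each group mean taken off, same-numbered libraries of different films correlated between -0.29 and 0.11 in P. schneideri and between -0.49 and 0.24 in P. qamdoensis. Other-numbered libraries correlated between -0.25 and 0.38 in P. schneideri and between -0.38 and 0.52 in P. qamdoensis. The replicate numbers thus showed no sign of pairing the libraries, but 9 same-numbered pairs per species cannot exclude it. A replicate block changed no call of the 4 genes. Over all genes it gave 6, 7 and 0 calls for BF against WF, GF against WF and BF against GF, where the fit without it gave 6, 10 and 0, and 2590 between species where that fit gave 2696, and adjusted p of 0.0596 and 0.0909 for Pyun14G008760 and Pyun14G009100 under BF. With 3 libraries per film and no counts, small differences of PHYB and PIF4 were not detectable beyond the intervals given, and causes of the changes were not tested. The scaling of the pathway lists and the P. qamdoensis lists, variance shares, ratios, correlations and species differences of list genes without BF replicate 1 were chosen after seeing the data.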
